A study of Mus musculus with 18 samples.

Results

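The 46 genes described here act in the cell cycle and in DNA replication. They were chosen by gene symbol, with earlier results of these data known. By role, 24 act in mitosis or mark dividing cells, 14 copy DNA or supply its nucleotides, 5 are transcription factors and other regulators, and 3 are cyclins of G1 and of the step from G1 to S phase. Every one of the 46 symbols was found among the 46257 genes of the deposited table, and all 46 were among the 22315 genes tested. RNA sequencing was done on 3 cell populations that had been sorted from mouse mammary gland at mid pregnancy, in adult mice and at puberty. The populations were basal cells, luminal cells with the estrogen receptor (ER+) and luminal cells without it (ER-). The 3 stages and 3 populations made 9 groups of 2 libraries each, numbered 1 and 2 in the sample titles, so 18 libraries in all. All 9 groups carried the same genotype, ERrtTA/TetOCre/rosaYFP, so no group lacked the transgenes. TetOCre is a Cre recombinase under a promoter that a tetracycline-controlled activator (rtTA) drives, and rosaYFP a fluorescent reporter that Cre switches on. Ages, sorting gates, any drug given and the number of mice behind a library were not given in the sources used here. The labels do not say whether libraries 1 and 2 of a group came from separate mice, so p-values here speak of the spread among these libraries alone, which may be technical.

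A dividing cell passes through G1, S, G2 and M phase. In G1, cyclin D and then cyclin E activate their kinases, which release E2F transcription factors to switch on the genes of DNA replication. The MCM helicase is loaded on origins by Cdc6 and Cdt1, and Pcna then clamps the polymerases to the copied strand. Before mitosis, Foxm1 and Mybl2 help to switch on cyclin B, Aurora and Polo-like kinases, kinesins and kinetochore proteins, which are destroyed or lost as the cell leaves mitosis. The RNA of most of these genes is scarce in resting cells, and the mammary epithelium is known to divide strongly when alveoli form in pregnancy.

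Values are normalised read counts as the authors deposited them, which sum to between 19819213 and 19881049 in each library. The reads behind them, recovered from the steps between values, numbered 7674862 to 11292242 in the 6 puberty libraries, 2406219 to 7900562 in the 6 adult libraries and 5280341 to 6363515 in the 6 pregnancy libraries. The median number of reads per member ran from 16.5 in adult ER+ library 2 to 403 in pregnancy ER- library 1. No member was at 0 in any library, although 9 of the values rested on 3 reads or fewer. The summed level of the basal marker list was 141611 to 311384 in the 6 basal libraries. In ER+ cells it was 880 to 12236 at puberty, 2238 to 3070 in adults and 26018 to 31928 in pregnancy, and in ER- cells 3057 to 13467 at puberty, 4673 to 4860 in adults and 35618 to 38186 in pregnancy. The ER+ marker list summed to 172667 to 217069 in puberty ER+ and 185250 to 209277 in adult ER+ libraries, but to 82803 and 32986 in pregnancy ER+ libraries 1 and 2. In those same pregnancy ER+ libraries the ER- list summed to 42854 and 110009, against 8175 to 12794 in ER+ cells of the other stages. The casein gene Csn3 of that list made 30515 and 81581 of its pregnancy ER+ sums. The list's other markers stood above puberty and adult ER+ libraries, except Aldh1a3, at 568 and 511, and Lalba in library 1, at 294. Esr1, the estrogen receptor that names the ER+ population, was at 5666 and 2096 in the pregnancy ER+ libraries, against 11208 to 24264 in the other ER+ libraries. Basal samples from puberty and pregnancy also have the word luminal in their label for cell type, while their titles call them BC, as those of adults do. How far the shifted markers of pregnancy luminal cells bear on the results was not tested. In such bulk samples, more dividing cells and more RNA per cell cannot be told apart.

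Pregnancy was first set against puberty, the comparison with the largest medians over the members. All 6 pregnancy libraries lay above all 6 puberty libraries for 38 of the 46 genes, while 4.02% of all genes tested showed this. No member had its 6 pregnancy libraries below the 6 puberty libraries. The median log2 fold change of the 46 genes, pregnancy over puberty, was 1.92 in basal, 2.73 in ER+ and 2.53 in ER- cells, beside medians of -0.02, 0.13 and 0.03 over all genes tested. With limma's test and Benjamini-Hochberg adjustment over all genes, 1 member rose in basal cells (0.668% of all genes did), 10 rose in ER+ cells (7.34%) and 11 rose in ER- cells (8.78%), and none fell. At an unadjusted p under 0.05 the members numbered 18 in basal (13.5% of all genes), 36 in ER+ (25.8%) and 37 in ER- cells (29.4%). The spread between the libraries numbered 1 and 2 at puberty was wide for these genes, as the values of single genes show. The fit takes 1 spread per gene from all 9 groups, adults included, whose pairs had larger median differences over the members. For Mki67 the log2 difference, library 1 minus library 2, was 0.86 to 1.51 at puberty and 2.28 to 3.01 in adults. Markers of other cells also differed between the stages. The 11 immune markers summed to 2840 to 6154 in basal, 1483 to 1804 in ER+ and 4556 to 4866 in ER- cells in pregnancy, against 899 to 3875 in basal, 562 to 965 in ER+ and 1062 to 1329 in ER- cells at puberty, with 0 to 2 of them at 0 in a library. The 5 fibroblast markers summed to 116316 to 126852 in basal, 31659 to 64944 in ER+ and 17090 to 19963 in ER- cells in pregnancy, against 51122 to 53038 in basal, 14932 to 49694 in ER+ and 11659 to 53130 in ER- cells at puberty, with none at 0. The 4 adipocyte markers summed to 98 to 100 in basal, 8 to 14 in ER+ and 15 to 24 in ER- cells in pregnancy, against 3205 to 8284 in basal, 370 to 2406 in ER+ and 721 to 3978 in ER- cells at puberty, with 1 or 2 of them at 0 in each pregnancy library and none at 0 at puberty. The part of such cells in the members' levels was not tested. The 8 genes for which the 12 libraries overlapped were Mcm4, Mcm6, Pcna, Cdt1, Gins2, Ccne1, Ccne2 and Ccnd1.

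**Figure D1:**
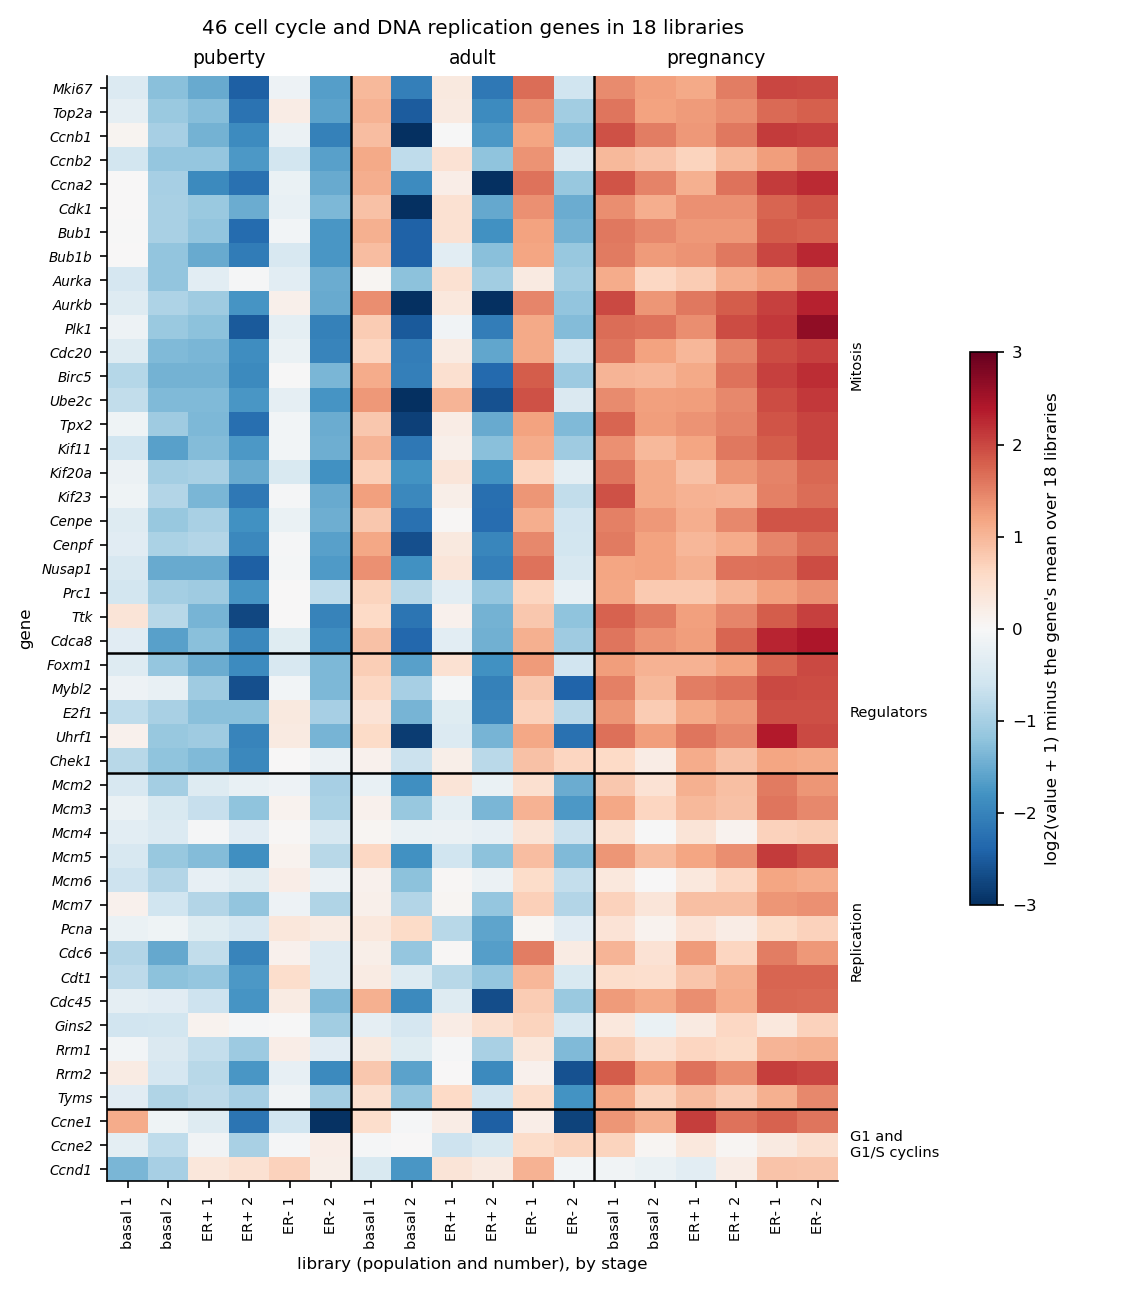
Heat map of the 46 genes (down, by role) in the 18 libraries (across, by stage and population, library 1 before 2); colour is log2(value + 1) minus the gene's mean over the 18 libraries. The 6 pregnancy libraries are high for most genes, the 6 puberty libraries are low, and within each adult population library 1 is high and library 2 is low for most genes.

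Promoters of all members with a window in RefSeq (GRCm38.p6), not filtered by their levels, were read to show which letters they share. Windows of 250 bases before to 50 bases after the start were held for 37 of the 46 genes, in 40 windows, and none was held for Mcm4, Ccnd1, Tpx2, Foxm1, Kif20a, Aurkb, Ccne2, Gins2 or Ccna2. Both strands were searched for TTCCCGC or TTGGCGC, letters of E2F sites, for TTTGAA, the letters of the cell cycle homology region (CHR) of mitotic genes, and for CCAAT, the letters bound by NF-Y. The CHR letters were in 16 of 21 windows of mitotic genes (76.2%), 2 of 13 of replication genes (15.4%) and 17.9% of all 32851 windows. E2F letters were in 3 of 21 windows of mitotic genes (14.3%), 8 of 13 of replication genes (61.5%) and 6.81% of all windows. CCAAT was in 19 of 21 (90.5%), 10 of 13 (76.9%) and 37.4%. Matches to such short words are a description and not a site, and E2F and CCAAT letters can overlap. The 3 mitotic promoters shown first carry CHR letters and the 2 MCM promoters E2F letters, and Pcna is shown beside them. Capitals mark E2F, CHR or CCAAT letters on either strand, and each stretch is the 250 bases before the start on the gene's own strand.
Cdk1: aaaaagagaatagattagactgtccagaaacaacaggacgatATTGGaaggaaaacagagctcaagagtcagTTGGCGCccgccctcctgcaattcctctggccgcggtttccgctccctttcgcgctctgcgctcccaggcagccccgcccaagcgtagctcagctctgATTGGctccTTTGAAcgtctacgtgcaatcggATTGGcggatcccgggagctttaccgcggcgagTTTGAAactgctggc
Top2a: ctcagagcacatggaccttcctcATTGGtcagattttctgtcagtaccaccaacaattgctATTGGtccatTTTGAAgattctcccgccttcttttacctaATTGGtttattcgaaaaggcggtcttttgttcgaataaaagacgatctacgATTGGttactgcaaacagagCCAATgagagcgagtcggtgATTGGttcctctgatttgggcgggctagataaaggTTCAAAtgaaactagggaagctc
Ube2c: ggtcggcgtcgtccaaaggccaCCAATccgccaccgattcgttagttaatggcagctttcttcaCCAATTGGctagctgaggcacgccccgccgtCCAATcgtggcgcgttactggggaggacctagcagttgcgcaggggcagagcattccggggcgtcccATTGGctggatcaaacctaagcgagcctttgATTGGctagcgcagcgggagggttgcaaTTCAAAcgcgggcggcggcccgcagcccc
Mcm5: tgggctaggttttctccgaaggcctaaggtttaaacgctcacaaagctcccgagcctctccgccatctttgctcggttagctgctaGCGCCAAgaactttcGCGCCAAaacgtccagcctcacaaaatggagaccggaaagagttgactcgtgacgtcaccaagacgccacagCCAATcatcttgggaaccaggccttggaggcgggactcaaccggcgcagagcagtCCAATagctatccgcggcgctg
Mcm6: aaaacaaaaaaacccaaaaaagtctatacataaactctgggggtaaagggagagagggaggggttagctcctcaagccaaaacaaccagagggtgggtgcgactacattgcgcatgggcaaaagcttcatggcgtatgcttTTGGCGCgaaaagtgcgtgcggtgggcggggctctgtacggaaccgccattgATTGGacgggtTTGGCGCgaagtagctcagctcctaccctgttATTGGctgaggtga
Pcna: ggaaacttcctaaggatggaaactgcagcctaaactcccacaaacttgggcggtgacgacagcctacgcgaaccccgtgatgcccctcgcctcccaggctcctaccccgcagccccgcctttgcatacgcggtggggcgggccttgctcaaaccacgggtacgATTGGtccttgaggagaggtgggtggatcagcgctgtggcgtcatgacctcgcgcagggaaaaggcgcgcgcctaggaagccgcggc
The stretches lie at chr10:69352913-69353162, minus strand, for Cdk1, chr11:99024190-99024439, minus strand, for Top2a and chr2:164769679-164769928, plus strand, for Ube2c. Those of replication genes lie at chr8:75109259-75109508, plus strand, for Mcm5, chr1:128359706-128359955, minus strand, for Mcm6 and chr2:132253181-132253430, minus strand, for Pcna. In them Cdk1 holds the E2F letters once, the CHR letters in 2 places and CCAAT in 3. Top2a holds CHR letters in 2 places and CCAAT in 6, and Ube2c CHR letters once and CCAAT in 6 places. Mcm5 and Mcm6 each hold E2F letters in 2 places and CCAAT in 2, with no CHR letters, and Pcna holds CCAAT once and neither of the others. Over the full window Rrm2 held the same letters as Pcna, and Birc5, Nusap1, Tyms, E2f1, Mybl2 and Ccne1 held none. All pregnancy libraries lay above all puberty libraries for these genes but Pcna and Ccne1, and the stages overlapped for Mcm6. Whether the letters go with the size of the change was not tested.

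Genes of mitosis had the largest median differences of the 4 roles between pregnancy and puberty, with median log2 fold changes over their 24 members of 2.13 in basal, 3.04 in ER+ and 2.74 in ER- cells. Mki67 (ENSMUSG00000031004, chr7:135689784-135716361, GRCm38) encodes the antigen Ki-67, which coats mitotic chromosomes and marks cycling cells. It had 13861 and 12206 in basal, 11348 and 14912 in ER+ and 20813 and 20415 in ER- cells in pregnancy, against 3909 and 2154 in basal, 1798 and 939 in ER+ and 4672 and 1641 in ER- cells at puberty. Every pregnancy library exceeded every puberty library, and the ratio of the libraries of a pair was larger at puberty than in pregnancy. In ER- cells Mki67 averaged 20610 ± 281 in pregnancy and 3156 ± 2143 at puberty (SD, n = 2 each). The log2 fold change was 2.16 ± 1.12 in basal (limma adjusted p = 0.46), 3.32 ± 1.12 in ER+ (adjusted p = 0.0872) and 2.90 ± 1.12 in ER- cells (adjusted p = 0.119), each with its standard error, so no population passed the threshold of 0.05. Top2a (ENSMUSG00000020914, chr11:98992943-99024189), the topoisomerase that untangles sister chromatids, had 5991 and 4530 in basal, 4759 and 5164 in ER+ and 6430 and 6812 in ER- cells in pregnancy, against 1629 and 911 in basal, 816 and 427 in ER+ and 2308 and 648 in ER- cells at puberty. The Top2a groups did not overlap, and its log2 fold change was 2.10 ± 1.21 in basal, 3.07 ± 1.21 in ER+ and 2.43 ± 1.21 in ER- cells, with no adjusted p under 0.138.

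The kinase at the core of mitotic entry and its cyclin had like patterns. Cdk1 had 695 and 570 in basal, 693 and 688 in ER+ and 885 and 984 in ER- cells in pregnancy, against 266 and 134 in basal, 122 and 94 in ER+ and 228 and 104 in ER- cells at puberty. Its partner cyclin B1, from Ccnb1, had 1140 and 885 in basal, 749 and 914 in ER+ and 1313 and 1255 in ER- cells in pregnancy, against 323 and 153 in basal, 113 and 81 in ER+ and 269 and 74 in ER- cells at puberty. For both genes all pregnancy libraries were higher, but neither passed the test in any population. Plk1, the Polo-like kinase that drives centrosome and spindle assembly, had 458 and 441 in basal, 378 and 559 in ER+ and 626 and 905 in ER- cells in pregnancy, against 128 and 65 in basal, 60 and 24 in ER+ and 115 and 34 in ER- cells at puberty. The log2 fold change of Plk1 was among the larger ones, at 3.56 ± 1.12 in ER+ (limma adjusted p = 0.0614) and 3.56 ± 1.12 in ER- cells (adjusted p = 0.0553), and 2.29 ± 1.12 in basal cells (adjusted p = 0.414).

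Aurkb and Birc5 belong to the chromosomal passenger complex, which corrects faulty attachment of chromosomes to the spindle. Aurkb, its kinase, had 577 and 365 in basal, 437 and 514 in ER+ and 606 and 718 in ER- cells in pregnancy, against 110 and 76 in basal, 69 and 42 in ER+ and 162 and 50 in ER- cells at puberty. Birc5, known as survivin, had 442 and 434 in basal, 481 and 669 in ER+ and 909 and 1007 in ER- cells in pregnancy, against 120 and 80 in basal, 81 and 57 in ER+ and 214 and 83 in ER- cells at puberty. Neither overlapped between the stages and neither was called. Borealin, the subunit from Cdca8, did rise in ER- cells, to 1666 and 1829 in pregnancy, against 263 and 93 at puberty (log2 fold change 3.47 ± 1.01, limma adjusted p = 0.0434). Cenpf, a large kinetochore protein, had 3132 and 2444 in basal, 2096 and 2277 in ER+ and 2934 and 3372 in ER- cells in pregnancy, against 840 and 546 in basal, 572 and 275 in ER+ and 1035 and 339 in ER- cells at puberty, again with every pregnancy library on top and no call.

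Of the 24 mitotic genes, 2 passed the test in ER+ cells (Prc1 and Ttk), near the 7.34% of all genes that rose there, and 4 in ER- cells (Cdca8, Prc1, Aurka and Ccnb2), beside 8.78%. Prc1, which bundles microtubules between the separating chromosomes, had 1196 and 921 in basal, 920 and 1069 in ER+ and 1259 and 1375 in ER- cells in pregnancy, against 362 and 262 in basal, 256 and 156 in ER+ and 541 and 313 in ER- cells at puberty. Prc1 rose in ER+ cells by a log2 fold change of 2.31 ± 0.47 (limma adjusted p = 0.0051) and in ER- cells by 1.67 ± 0.47 (adjusted p = 0.0295), and in basal cells it was 1.77 ± 0.47 (adjusted p = 0.0757). Ttk, a kinase of the spindle checkpoint, rose in ER+ cells, with 418 and 491 in pregnancy against 67 and 26 at puberty (log2 fold change 3.41 ± 1.00, adjusted p = 0.0471). Aurka, the kinase of spindle poles, rose in ER- cells, with 532 and 654 in pregnancy against 177 and 78 at puberty (log2 fold change 2.32 ± 0.57, adjusted p = 0.015). In ER+ cells Aurka was already at 178 and 215 at puberty, and its log2 fold change there was 1.11 ± 0.57 (adjusted p = 0.243). Ccnb2, the second B-type cyclin, rose in ER- cells to 1235 and 1495 in pregnancy, against 357 and 167 at puberty (log2 fold change 2.47 ± 0.74, adjusted p = 0.0466).

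The 5 regulators came next in size, with median log2 fold changes of 1.92 in basal, 2.82 in ER+ and 2.69 in ER- cells. Foxm1, the transcription factor of genes used in G2 and mitosis, had 975 and 838 in basal, 842 and 947 in ER+ and 1377 and 1623 in ER- cells in pregnancy, against 313 and 182 in basal, 145 and 109 in ER+ and 294 and 160 in ER- cells at puberty. Its pregnancy libraries were all higher, and its adjusted p came close to the threshold in ER+ cells (log2 fold change 2.82 ± 0.87, limma adjusted p = 0.0584) and in ER- cells (2.78 ± 0.87, adjusted p = 0.0558). E2f1, an activator of S phase genes, was a low gene that had 257 and 173 in basal, 225 and 252 in ER+ and 391 and 391 in ER- cells in pregnancy, against 59 and 51 in basal, 42 and 42 in ER+ and 125 and 50 in ER- cells at puberty. E2f1 rose in ER+ cells (2.48 ± 0.65, adjusted p = 0.019) and in ER- cells (2.29 ± 0.65, adjusted p = 0.0276), and in basal cells the value was 1.92 ± 0.65 (adjusted p = 0.165). Mybl2, which acts with E2F factors and Foxm1 on mitotic genes, rose in ER+ cells to 306 and 330 in pregnancy, against 50 and 16 at puberty (3.44 ± 0.96, adjusted p = 0.0337). Uhrf1, which keeps DNA methylation through replication, had 1475 and 1308 in pregnancy ER+ libraries against 229 and 122 in puberty ER+ libraries, and was called in no population.

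Chek1, the kinase that holds the cycle when replication forks stall, was the member called in all 3 populations. It had 353 and 272 in basal, 503 and 433 in ER+ and 529 and 511 in ER- cells in pregnancy, against 130 and 101 in basal, 92 and 60 in ER+ and 236 and 207 in ER- cells at puberty. The pregnancy and puberty libraries did not overlap in any population, and the standard error of its log2 fold change was 0.35, against 1.12 for Mki67. These errors draw on all 9 groups, the adult pairs included. In adults the log2 difference, library 1 minus library 2, was 0.24 to 0.99 for Chek1 and 2.28 to 3.01 for Mki67. Chek1 rose by a log2 fold change of 1.43 ± 0.35 in basal cells (limma adjusted p = 0.0477), 2.63 ± 0.35 in ER+ cells (adjusted p = 0.000151) and 1.23 ± 0.35 in ER- cells (adjusted p = 0.0278). The call in ER+ cells held under each of the 12 alternatives tried, and the call in basal cells was lost when any 1 of its 4 libraries was left out.

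**Figure D2:**
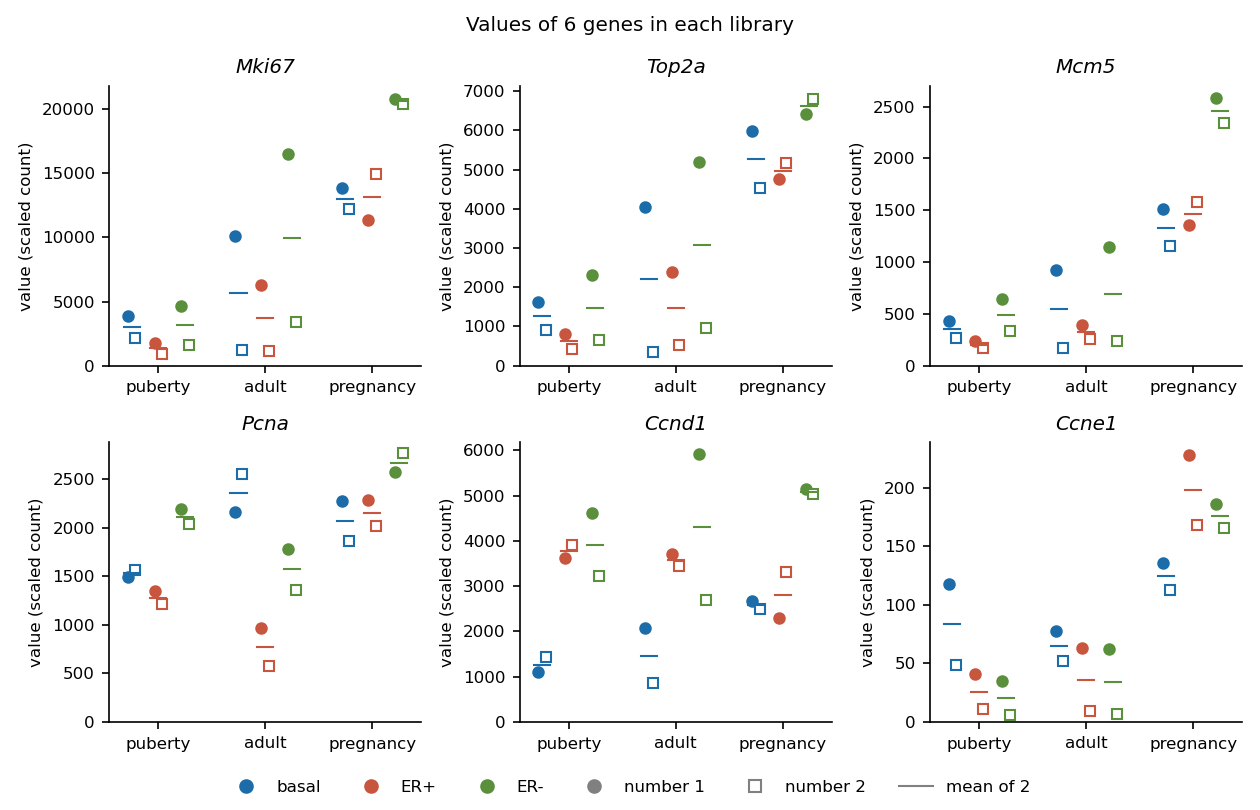
Deposited normalised counts (linear scale from 0) of Mki67, Top2a, Mcm5, Pcna, Ccnd1 and Ccne1 in the 9 groups, with colours for basal, ER+ and ER- cells; filled circles are libraries numbered 1, open squares libraries numbered 2, and the line is the mean of both. For Mki67, Top2a and Mcm5 the pregnancy pairs sit close together and high, while the adult pairs are split widely; Pcna and Ccnd1 are split less.

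The 14 replication genes had smaller differences than the mitotic ones, with medians of 1.30 in basal, 1.81 in ER+ and 1.76 in ER- cells. The helicase subunits Mcm2 to Mcm7 had unequal log2 fold changes. Mcm5 had 1509 and 1156 in basal, 1354 and 1579 in ER+ and 2578 and 2340 in ER- cells in pregnancy, against 429 and 270 in basal, 241 and 166 in ER+ and 644 and 337 in ER- cells at puberty. It was higher in every pregnancy library, and it rose in ER+ cells (log2 fold change 2.86 ± 0.80, limma adjusted p = 0.0398). In basal cells the Mcm5 value was 1.95 ± 0.80 (adjusted p = 0.307) and in ER- cells 2.40 ± 0.80 (adjusted p = 0.071). Mcm2 had 1058 and 818 in basal, 1273 and 1131 in ER+ and 1790 and 1525 in ER- cells in pregnancy, against 431 and 297 in basal, 460 and 520 in ER+ and 544 and 302 in ER- cells at puberty, and rose in ER- cells (2.02 ± 0.60, adjusted p = 0.044). Mcm4 stood high at every stage, with 2299 and 1646 in basal, 2174 and 1806 in ER+ and 2689 and 2764 in ER- cells in pregnancy, against 1335 and 1246 in basal, 1638 and 1309 in ER+ and 1701 and 1200 in ER- cells at puberty. Mcm4 rose in ER- cells by a log2 fold change of 0.93 ± 0.27 (adjusted p = 0.0318), although its lowest pregnancy library, of basal cells, lay below the highest puberty library, of ER- cells. Mcm7 rose in ER+ cells (1.92 ± 0.54, adjusted p = 0.0382) and in ER- cells (1.89 ± 0.54, adjusted p = 0.0385).

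Of the factors that load the helicase, Cdt1 had 537 and 530 in basal, 662 and 775 in ER+ and 1245 and 1247 in ER- cells in pregnancy, against 216 and 157 in basal, 166 and 112 in ER+ and 537 and 278 in ER- cells at puberty. Cdt1 rose in ER+ cells (log2 fold change 2.38 ± 0.41, limma adjusted p = 0.00121) and in ER- cells (1.69 ± 0.41, adjusted p = 0.0133), while in basal cells it was 1.53 ± 0.41 (adjusted p = 0.0726). The ER+ call of Cdt1, too, held under each of its 12 alternatives. Cdc6, its partner at origins, rose in ER+ cells to 259 and 165 in pregnancy, against 63 and 26 at puberty (2.32 ± 0.62, adjusted p = 0.0212). Pcna, the sliding clamp, had 2273 and 1861 in basal, 2283 and 2015 in ER+ and 2571 and 2772 in ER- cells in pregnancy, against 1496 and 1569 in basal, 1344 and 1219 in ER+ and 2193 and 2040 in ER- cells at puberty. Its levels were among the highest of the members at every stage and its change among the smallest, so the libraries of the 2 stages overlapped when all populations were put together. The small change of Pcna passed the test in ER+ cells (0.74 ± 0.21, adjusted p = 0.0293), with a standard error of 0.21, but not in basal (0.42 ± 0.21, adjusted p = 0.408) or ER- cells (0.34 ± 0.21, adjusted p = 0.321). Gins2, a subunit of the helicase complex at forks, had 132 and 93 in basal, 128 and 165 in ER+ and 132 and 173 in ER- cells in pregnancy, against 71 and 72 in basal, 115 and 104 in ER+ and 105 and 51 in ER- cells at puberty, and its ranges overlapped across populations.

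Rrm2, the subunit of ribonucleotide reductase whose amount limits the making of DNA precursors, had 1120 and 746 in basal, 986 and 830 in ER+ and 1336 and 1273 in ER- cells in pregnancy, against 378 and 224 in basal, 178 and 94 in ER+ and 265 and 83 in ER- cells at puberty. Its pregnancy libraries were all higher, and the log2 fold change of Rrm2 was 1.65 ± 1.02 in basal, 2.80 ± 1.02 in ER+ (limma adjusted p = 0.108) and 3.13 ± 1.02 in ER- cells (adjusted p = 0.067). Its partner subunit Rrm1 had smaller values of 0.86 ± 0.46, 1.51 ± 0.46 and 1.11 ± 0.46 in basal, ER+ and ER- cells, and Tyms, the thymidylate synthase, had 1.53 ± 0.70, 1.75 ± 0.70 and 1.83 ± 0.70. None of these 3 genes was called against puberty.

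The 3 cyclins that act earliest did not share one pattern. Ccnd1, cyclin D1, had 2665 and 2500 in basal, 2289 and 3310 in ER+ and 5138 and 5039 in ER- cells in pregnancy, against 1106 and 1425 in basal, 3625 and 3913 in ER+ and 4609 and 3214 in ER- cells at puberty. In basal cells both pregnancy libraries were above both puberty libraries, in ER+ cells both were below, and in ER- cells both were above. No Ccnd1 change passed the test, at 1.04 ± 0.40 in basal (limma adjusted p = 0.266), -0.45 ± 0.40 in ER+ (adjusted p = 0.557) and 0.40 ± 0.40 in ER- cells (adjusted p = 0.567). Ccne1, cyclin E1, was low, with 136 and 113 in basal, 228 and 168 in ER+ and 186 and 166 in ER- cells in pregnancy, against 118 and 49 in basal, 41 and 11 in ER+ and 35 and 6 in ER- cells at puberty. The pregnancy libraries of Ccne1 were far above those of puberty in both luminal populations, while in basal cells 1 puberty library stood at 118, above the lower pregnancy library. Ccne1 rose in ER- cells (3.48 ± 1.06, adjusted p = 0.0428), where the value 6 of puberty ER- library 2 was 3 reads, and in ER+ cells it was 3.13 ± 1.06 (adjusted p = 0.0711). Ccne2, cyclin E2, ranged from 201 to 307 over the 6 pregnancy libraries and from 99 to 222 over the 6 puberty libraries, and was called in no population.

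**Figure D3:**
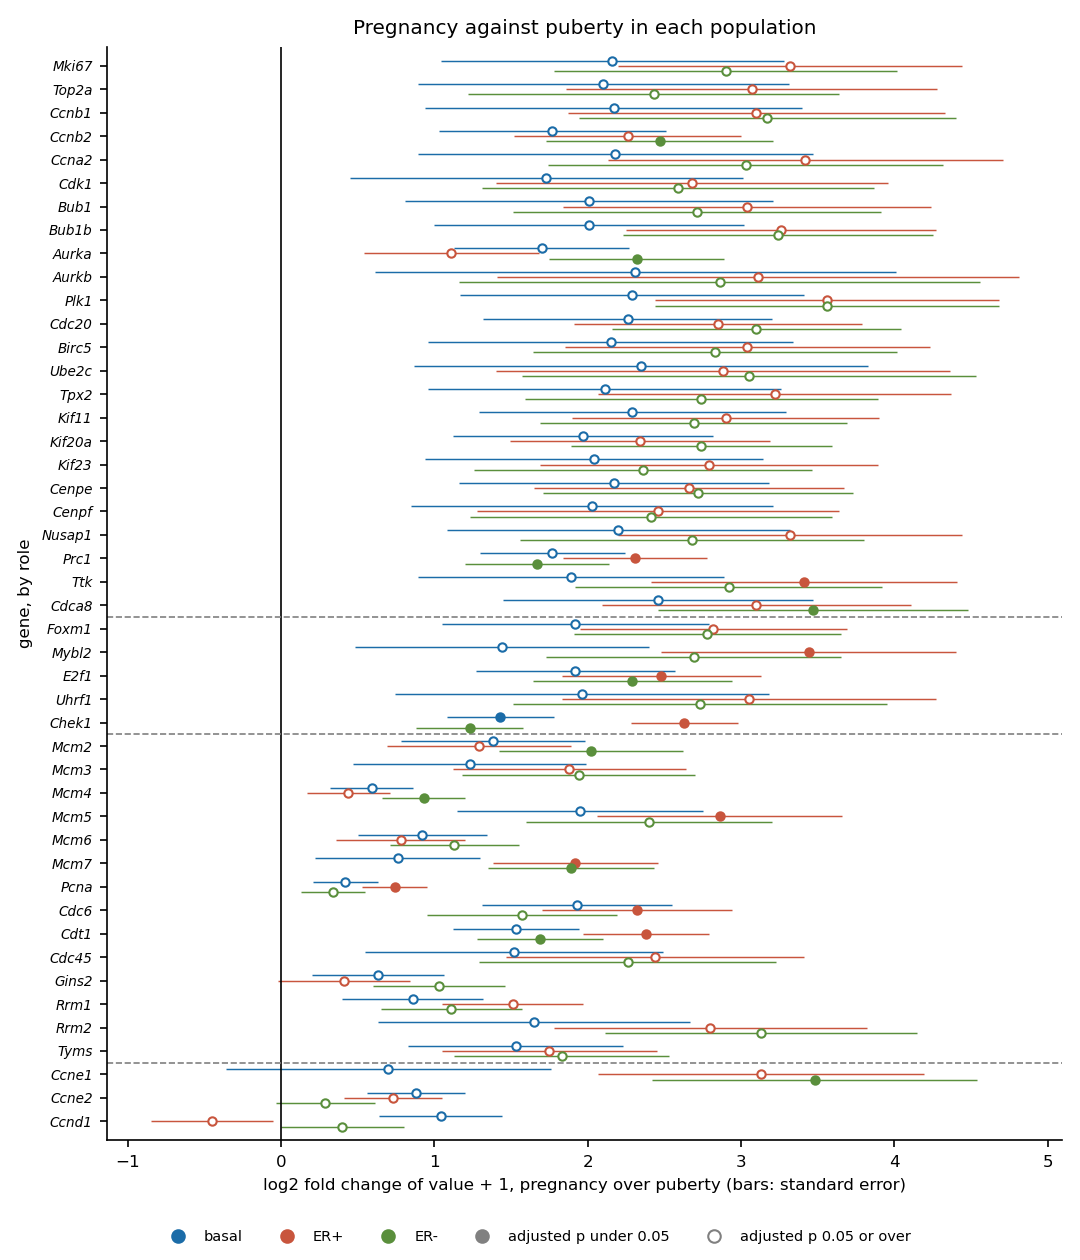
Log2 fold change of value + 1, pregnancy over puberty, of each of the 46 genes (down, by role) in basal, ER+ and ER- cells; bars are limma standard errors, and filled points passed an adjusted p of 0.05. Nearly all points lie right of 0, the mitotic genes have long bars, and Ccnd1 in ER+ cells is the 1 point left of 0.

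Within single populations, both pregnancy libraries were above both puberty libraries for 45 members in basal cells (24.2% of all genes tested), 45 in ER+ cells (32.0%) and 46 in ER- cells (31.5%). Counts of called members differed between fits, and a count given without the share of all genes says nothing particular of the members. Leaving out 1 of the 4 libraries gave 0 called members in basal cells whichever was left out, 2 to 5 in ER+ cells and 0 to 7 in ER- cells. The lowest ER+ counts of 2 came without puberty ER+ library 2 or pregnancy ER+ library 2, and the counts of 0 in ER- cells without puberty ER- library 2 or pregnancy ER- library 2. On the recovered reads, edgeR's quasi-likelihood test called 1 member in basal (0.963% of all genes rose by it), 23 in ER+ (8.08%) and 19 in ER- cells (8.07%). DESeq2 called 9 (3.24% of the genes to which it gave an adjusted p), 35 (11.5%) and 28 (12.2%). All values of all members pointed to pregnancy except that of Ccnd1 in ER+ cells.

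Adult libraries numbered 1 and 2 stood far apart for the members, in all 3 populations. Library 1 exceeded library 2 for 44 of 46 members in basal, 44 in ER+ and 45 in ER- cells, and for 43 members in all 3 at once (16.7% of all genes). At puberty it did so in all 3 for 39 members (20.4%). The median log2 difference, library 1 minus library 2, was 2.48 in basal, 1.68 in ER+ and 2.06 in ER- cells, beside 0.04, 0.00 and 0.00 over all genes tested. Library 1 was at least 2-fold above library 2 in all 3 populations for 31 members, and for 1.12% of all genes. At puberty the medians were 0.68, 0.57 and 1.28, and in pregnancy 0.37, -0.18 and -0.10. These are differences between single libraries and carry no test, and what separates the numbers is not given in the sources used here.

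**Figure D4:**
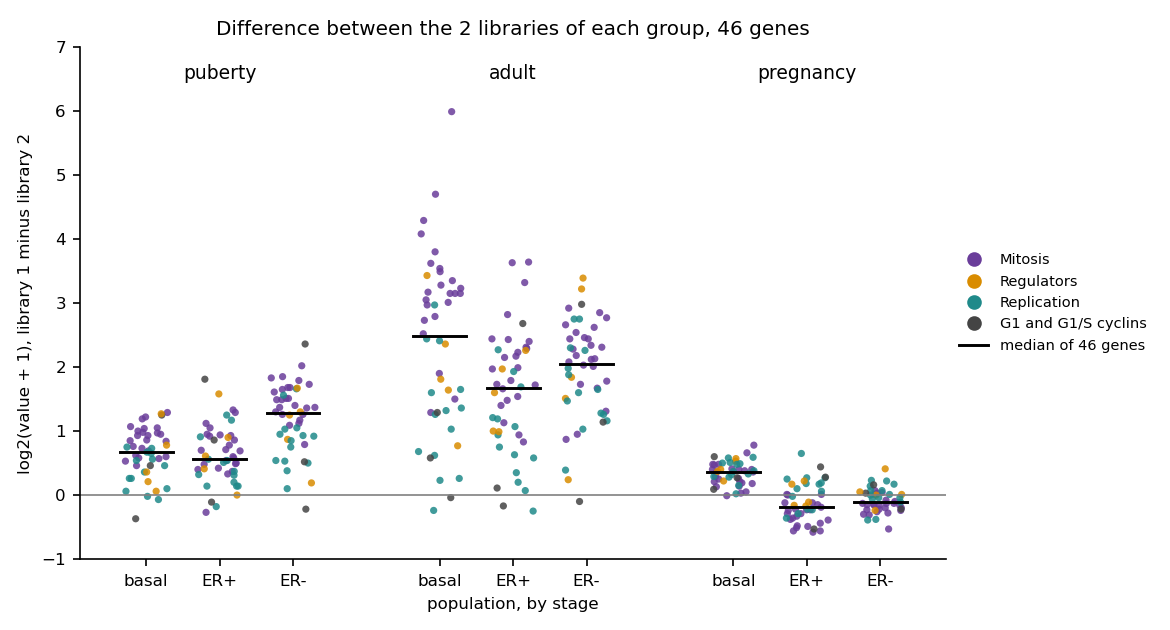
Log2 difference between library 1 and library 2 (1 minus 2) of each of the 46 genes in the 9 groups; each point is a gene and the black line is the median of the group. The 3 adult groups sit far above 0, with medians of 2.48, 1.68 and 2.06, and the puberty groups sit closer to 0. The pregnancy ER+ and ER- groups lie around 0, and the pregnancy basal group lies slightly above it for 45 of 46 genes, with a median of 0.37.

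Mki67 had 10126 and 1252 in basal, 6322 and 1163 in ER+ and 16523 and 3409 in ER- cells in adults, library 1 first in each pair. Top2a had 4050 and 347 in basal, 2389 and 537 in ER+ and 5201 and 959 in ER- cells in adults. For both genes library 1 lay between the puberty and the pregnancy libraries of its population, and library 2 lay within or below the puberty pair. Cdk1 had 488 and 24 in basal, 365 and 91 in ER+ and 682 and 94 in ER- cells in adults. Ccnb1 had 576 and 33 in basal, 303 and 91 in ER+ and 696 and 126 in ER- cells in adults. Plk1 had 242 and 24 in basal, 132 and 33 in ER+ and 314 and 57 in ER- cells in adults. For all 3 genes of mitotic entry the split was widest in basal cells. Aurkb had 380 and 5 in basal, 179 and 17 in ER+ and 403 and 63 in ER- cells in adults, where the 5 of adult basal library 2 was 1 read and the 17 of adult ER+ library 2 was 2 reads. Birc5 had 470 and 52 in basal, 303 and 42 in ER+ and 771 and 101 in ER- cells in adults. Cenpf had 2364 and 169 in basal, 1288 and 273 in ER+ and 2877 and 715 in ER- cells in adults, so Aurkb, Birc5 and Cenpf were split in the same direction. Ube2c, the enzyme that tags mitotic proteins for destruction, had 882 and 33 in basal, 730 and 58 in ER+ and 1343 and 264 in ER- cells in adults. The median difference of the 24 mitotic genes was 3.16 in basal, 2.07 in ER+ and 2.23 in ER- cells.

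Regulators and replication genes were split less evenly. Foxm1 had 681 and 132 in basal, 559 and 116 in ER+ and 989 and 276 in ER- cells in adults. E2f1 had 136 and 38 in basal, 78 and 25 in ER+ and 164 and 57 in ER- cells in adults. Library 1 was higher in each pair of these transcription factors. Mcm5 had 922 and 169 in basal, 396 and 256 in ER+ and 1146 and 239 in ER- cells in adults. Mcm2 had 513 and 169 in basal, 792 and 528 in ER+ and 846 and 214 in ER- cells in adults. Rrm2 had 556 and 104 in basal, 318 and 83 in ER+ and 348 and 51 in ER- cells in adults. These genes of replication had library 1 on top in each population too, with the least split for Mcm2 and Mcm5 in ER+ cells. Chek1 had 257 and 150 in basal, 264 and 132 in ER+ and 430 and 364 in ER- cells in adults, a log2 difference of 0.77, 0.99 and 0.24. The median difference of the 14 replication genes was 1.29 in basal, 0.84 in ER+ and 1.62 in ER- cells.

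Some members were split less or the other way in 1 or more populations. Pcna had 2158 and 2550 in basal, 970 and 578 in ER+ and 1786 and 1360 in ER- cells in adults, so library 1 was the lower of the pair in basal cells. Ccne2 had 191 and 197 in basal, 125 and 141 in ER+ and 287 and 307 in ER- cells in adults, with library 1 slightly lower in each population. Gins2 had a log2 difference, library 1 minus library 2, of 0.23 in basal, -0.25 in ER+ and 1.16 in ER- cells, and these 3 genes were the ones with library 1 lower in any adult population. Ccnd1 had 2078 and 849 in basal, 3708 and 3440 in ER+ and 5924 and 2688 in ER- cells in adults, with nearly equal libraries in ER+ cells. Ccne1 had 78 and 52 in basal, 63 and 9 in ER+ and 62 and 7 in ER- cells in adults, with library 1 higher in each population, where the lowest values, 9 and 7, were 1 read each. Immune marker sums were 1903 and 2149 in adult basal libraries 1 and 2, 819 and 911 in adult ER+ libraries and 1947 and 3188 in adult ER- libraries, lower in library 1 in each population. Luminal markers also differed between adult basal libraries 1 and 2, with the ER- list at 45178 and 23914 and the ER+ list at 9453 and 21336. The casein gene Csn3 made 29292 and 13997 of these ER- list sums. The ER- list was closer in the adult ER+ pair, at 8481 and 8175, and in the adult ER- pair, at 94925 and 89145. The part of such cells in the split was not tested.

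Put against the other stages, the 3 adult libraries numbered 1 all exceeded the 3 numbered 2 for 37 members (4.68% of all genes). The 6 pregnancy libraries all exceeded the 3 adult libraries numbered 2 for 41 members (8.08%) and the 3 numbered 1 for 19 members (3.82%). The 19 comprised 10 genes of mitosis, namely Ccnb1, Bub1, Bub1b, Aurka, Plk1, Tpx2, Kif20a, Prc1, Ttk and Cdca8, the regulators Mybl2, E2f1 and Uhrf1, the replication genes Mcm5, Cdc45, Rrm1, Rrm2 and Tyms, and Ccne1. Mki67 and Top2a were not among them: Mki67 was at 16523 in adult ER- library 1, above 4 of the 6 pregnancy libraries.

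Pregnancy against adult cells had member medians close to those against puberty in basal cells and smaller ones in luminal cells, but few calls. The median log2 fold change was 1.64 in basal, 1.96 in ER+ and 1.76 in ER- cells, beside -0.09, 0.21 and 0.09 over all genes. In basal cells 0 members passed limma's test (2.92% of all genes rose), although 10 had an unadjusted p under 0.05 (25.0%), and edgeR called 0 (5.32%) and DESeq2 1 (9.67%). In ER+ cells 5 members rose (12.8% of all genes) and in ER- cells 4 rose (8.89%), with none lower. Both counts are near the share of all genes and say nothing particular of the members. Both pregnancy libraries exceeded both adult libraries for 36 members in basal (25.7% of all genes), 44 in ER+ (34.2%) and 41 in ER- cells (31.0%). Markers of other cells also differed. Endothelial markers summed to 2270 to 3625 in ER+ and 3694 to 4036 in ER- cells in pregnancy. In adults they summed to 236 to 240 and 354 to 493. In basal cells they were lower in pregnancy, at 3460 to 4165 against 7910 to 10311. Fibroblast markers summed to 31659 to 64944 in pregnancy ER+ and 5611 to 7177 in adult ER+ libraries, and overlapped in ER- cells. In basal cells they summed to 116316 to 126852 in pregnancy and 13310 to 17974 in adults. Immune markers summed to 2840 to 6154 in basal, 1483 to 1804 in ER+ and 4556 to 4866 in ER- cells in pregnancy. Adult immune sums were 1903 to 2149, 819 to 911 and 1947 to 3188 in the same order. The part of all such cells in the members' levels was not tested.

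Pcna and Cdt1 were called in both luminal populations. Pcna rose in pregnancy ER+ cells, which had 2283 and 2015, against 970 and 578 in adult ER+ cells (log2 fold change 1.52 ± 0.21, limma adjusted p = 0.00018), and in pregnancy ER- cells, which had 2571 and 2772, against 1786 and 1360 in adult ER- cells (0.78 ± 0.21, adjusted p = 0.0247). In basal cells Pcna had 2273 and 1861 in pregnancy against 2158 and 2550 in adults, with a log2 fold change of -0.19 ± 0.21 (adjusted p = 0.613). Cdt1 rose in ER+ cells (1.94 ± 0.41, adjusted p = 0.00456) and in ER- cells (1.47 ± 0.41, adjusted p = 0.0285), with 662 and 775 in pregnancy ER+ against 210 and 165 in adult ER+ libraries and 1245 and 1247 in pregnancy ER- against 750 and 270 in adult ER- libraries. E2f1 (2.40 ± 0.65, adjusted p = 0.0182), Prc1 (1.63 ± 0.47, adjusted p = 0.0286) and Chek1 (1.32 ± 0.35, adjusted p = 0.0165) rose in ER+ cells. Aurka (1.80 ± 0.57, adjusted p = 0.0494) and Rrm1 (1.53 ± 0.46, adjusted p = 0.0464) rose in ER- cells. Mki67, by contrast, had a log2 fold change of 1.87 ± 1.12 in basal, 2.26 ± 1.12 in ER+ and 1.46 ± 1.12 in ER- cells, and was called in none.

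These counts depended on the adult libraries. Without adult basal library 1 the fit called 22 members higher in basal cells (6.54% of all genes), without adult ER+ library 1 it called 11 in ER+ cells (10.9%), and without adult ER- library 1 it called 16 in ER- cells (7.75%). Without all 3 adult libraries numbered 1 it called 39 in basal (8.59% of all genes), 41 in ER+ (13.7%) and 41 in ER- cells (11.4%). Without the 3 numbered 2 it called 0 (0.354%), 5 (10.8%) and 0 (4.68%) in the same order. The single adult library left in a group was then assumed to vary like the other groups. Leaving out 1 of the other libraries gave 0 in basal, 2 in ER+ and 0 in ER- cells. DESeq2 on the recovered reads called 13 members in ER+ (12.6%) and 8 in ER- cells (9.11%), and edgeR called 5 (9.0%) and 1 (6.23%).

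Adult against puberty cells showed little that passed the test. The medians were 0.12 in basal, 0.64 in ER+ and 0.76 in ER- cells, with 0.02, -0.07 and -0.04 over all genes. In basal cells 0 members were called (9.73% of all genes changed) and 3 had an unadjusted p under 0.05 (24.8%), with 0 called by edgeR and 1 by DESeq2. In ER- cells 0 were called (3.66% of all genes changed) and 1 had an unadjusted p under 0.05 (17.3%), with 0 called by edgeR and by DESeq2. In ER+ cells 2 were called (5.73% of all genes changed). Chek1 rose to 264 and 132 in adult ER+ libraries, against 92 and 60 in puberty ER+ libraries (log2 fold change 1.32 ± 0.35, limma adjusted p = 0.0371). Pcna fell to 970 and 578 in adult ER+ libraries, against 1344 and 1219 in puberty ER+ libraries (-0.77 ± 0.21, adjusted p = 0.0427). Leaving out any 1 of the 4 libraries took the ER+ count to 0 or 1, with 0 without puberty ER+ library 2. With the adult libraries numbered 2 left out, 6 members were called in basal (4.21% of all genes), 8 in ER+ (6.66%) and 7 in ER- cells (4.34%), all higher in adults. With those numbered 1 left out the counts were 6 (10.3%), 1 (5.22%) and 1 (2.46%), of which 1 in basal cells was higher in adults and the others lower.

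Between populations of the same stage few members passed the test, which treats all libraries as unpaired. Basal against ER+ cells gave 1 called member at puberty (21.3% of all genes differed), 2 in adults (36.8%) and 0 in pregnancy (13.2%). Basal against ER- cells gave 1 at puberty (17.8%), 1 in adults (17.4%) and 0 in pregnancy (18.6%). ER+ against ER- cells gave 3 at puberty (12.4%), 4 in adults (17.0%) and 0 in pregnancy (1.85%). In pregnancy the unadjusted p was under 0.05 for 0 members in basal against ER+ (26.4% of all genes), 4 in basal against ER- (31.6%) and 1 in ER+ against ER- cells (13.9%), and edgeR and DESeq2 called 0 in each. Same-numbered libraries of adults and of puberty shared their direction for most members, as given above. With the number as a term within each stage, a fit added after seeing the data, the calls at puberty were 17 for basal against ER+ (24.6% of all genes), 7 for basal against ER- (20.6%) and 14 for ER+ against ER- cells (15.6%), and in adults 8 (40.0%), 12 (21.3%) and 17 (20.9%).

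Cyclin D1 was the member that differed between basal and luminal cells at puberty and in adults. Ccnd1 averaged 1266 ± 226 in puberty basal cells, against 3769 ± 204 in ER+ and 3912 ± 986 in ER- cells of that stage (SD, n = 2 each). In adults it averaged 1464 ± 869 in basal cells, against 3574 ± 190 in ER+ and 4306 ± 2288 in ER- cells. Ccnd1 was lower in basal than in ER+ cells at puberty (log2 fold change -1.58 ± 0.40, limma adjusted p = 0.0145) and in adults (-1.43 ± 0.40, adjusted p = 0.0165), and lower than in ER- cells at puberty (-1.62 ± 0.40, adjusted p = 0.0152) and in adults (-1.59 ± 0.40, adjusted p = 0.0194). In pregnancy Ccnd1 had 2665 and 2500 in basal, 2289 and 3310 in ER+ and 5138 and 5039 in ER- libraries. The basal libraries of pregnancy lay within the range of the ER+ libraries, and the log2 fold change of basal over ER+ was -0.09 ± 0.40 (adjusted p = 0.938). The pregnancy against puberty effect on Ccnd1 was 1.49 ± 0.57 larger in basal than in ER+ cells on the log2 scale, which did not pass (limma adjusted p = 0.311). The calls of Ccnd1 did not hold without every library. At puberty they were lost without basal library 1, with adjusted p of 0.112 against ER+ and 0.117 against ER- cells, and without ER+ library 1 or 2 or ER- library 1, at 0.0508 to 0.108. In adults they were lost without basal library 2, with 0.15 against ER+ and 0.159 against ER- cells, and without ER+ library 1 or 2 or ER- library 1, at 0.0574 to 0.14.

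Pcna was higher in adult basal cells, at 2158 and 2550, than in adult ER+ cells, at 970 and 578 (log2 fold change 1.65 ± 0.21, limma adjusted p = 3.2e-05), a call that held under all 13 alternatives. ER+ cells had less of 3 replication-linked genes than ER- cells at puberty. Chek1 was at 92 and 60 in puberty ER+ and 236 and 207 in puberty ER- libraries (-1.56 ± 0.35, adjusted p = 0.00699). Cdt1 was at 166 and 112 in puberty ER+ and 537 and 278 in puberty ER- libraries (-1.50 ± 0.41, adjusted p = 0.0254). Pcna was at 1344 and 1219 in puberty ER+ and 2193 and 2040 in puberty ER- libraries (-0.72 ± 0.21, adjusted p = 0.0341). The same 3 genes were lower in adult ER+ than in adult ER- cells, with Chek1 at -1.08 ± 0.35 (adjusted p = 0.0457), Cdt1 at -1.27 ± 0.41 (adjusted p = 0.0464) and Pcna at -1.06 ± 0.21 (adjusted p = 0.00322). Ccne2 joined them in adults, at 133 ± 11.3 in ER+ and 297 ± 14.1 in ER- cells (-1.15 ± 0.32, adjusted p = 0.0216). Leaving out 1 library gave 0 to 2 called members at puberty, with 0 without puberty ER+ library 2 or puberty ER- library 1, and 1 to 3 in adults, with 1 without adult ER+ library 2 or adult ER- library 1.

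In pregnancy ER- cells had the highest levels of most members, though no single gene passed. Both basal libraries lay below both ER- libraries for 40 members (38.0% of all genes), and both ER+ libraries lay below both ER- libraries for 43 members (25.9%). The median log2 difference was -0.56 for basal against ER- cells, beside -0.20 over all genes, and -0.53 for ER+ against ER- cells, beside -0.09. Basal against ER+ cells had a median of -0.03. The members together made up 0.367% and 0.296% of the summed values in basal libraries of pregnancy, 0.31% and 0.357% in the ER+ pair and 0.491% and 0.507% in the ER- pair. The immune marker list summed to 2840 to 6154 in basal, 1483 to 1804 in ER+ and 4556 to 4866 in ER- libraries of pregnancy, and its part in these differences was not tested.

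Whether the change with pregnancy differed between populations was tested as a difference of effects. Against adults, Pcna alone was called: its change in basal cells was lower than in ER+ cells by 1.71 ± 0.30 on the log2 scale (limma adjusted p = 0.0027), which held under all 16 alternatives with adjusted p from 1.48e-05 to 0.0204. That was 1 member of 46 for basal minus ER+ (8.46% of all genes), 0 for basal minus ER- (1.98%) and 0 for ER+ minus ER- (2.07%). For basal minus ER- 1 member (16.1% of all genes) and for ER+ minus ER- 2 members (15.2%) had an unadjusted p under 0.05. Against puberty the count was 0 for basal minus ER+ (1.63% of all genes), 0 for basal minus ER- (0.627%) and 0 for ER+ minus ER- (2.31%). There 2 (11.1%), 0 (11.7%) and 1 members (13.7%) had an unadjusted p under 0.05, edgeR called 0 in each, and DESeq2 called 1 for ER+ minus ER-. Against adults edgeR and DESeq2 each called 1 member for basal minus ER+ and 0 for the other differences. The smaller log2 fold changes of basal cells were not shown to differ from those of luminal cells for any member but Pcna.

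Levels were also set against transcript length. Levels per kilobase of annotated exon were highest for Mki67, Mcm6, Pcna and Ccnd1 in pregnancy ER- cells, at 2049, 1153, 1113 and 1080. At puberty Mki67 was at 136 per kilobase in ER+ cells, well under Ccnd1 at 800.4, Pcna at 534.2, Mcm6 at 422.6 and Mcm4 at 410.7 in the same cells. The lowest members in pregnancy ER- cells were Gins2 at 37.22 and Cdc6 at 54.5 per kilobase. These levels rest on the union of all annotated exons, not on the transcripts in use.

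Genes of the same processes outside the 46 were read from 7 lists, and most of these lists had medians above that of all genes. In pregnancy against puberty the list of spindle, kinesin and cytokinesis genes (26 tested) had medians of 1.99 in basal, 2.63 in ER+ and 2.62 in ER- cells, with 0, 6 and 5 genes higher and none lower. Kinetochore and chromosome structure genes (27 tested) had medians of 1.71, 2.37 and 2.10, with 0, 9 and 9 higher and none lower. Origin firing and fork genes (40 tested) had medians of 0.74, 1.08 and 1.23, with 1, 15 and 15 higher and none lower. Nucleotide supply genes (10 tested) had medians of 0.40, 0.49 and 1.01, with 1, 2 and 4 higher, and 1 lower in ER+ cells. Replication-dependent histones (59 tested of 70 listed) had medians of 2.03, 2.50 and 2.49, with 0, 13 and 10 higher, and many have near-identical copies among which reads may have been divided. Controls of G1/S and G2/M (23 tested) had medians of 0.61, 1.04 and 0.96, with 0, 7 and 7 higher, and 1 lower in basal and 1 in ER- cells. The medians over all genes were -0.02, 0.13 and 0.03, and 0.668%, 7.34% and 8.78% of all genes rose.

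Cdc7, the kinase that fires loaded origins, stood highest in pregnancy ER+ cells. Its pregnancy libraries stood at 4569 and 3013 in ER+ cells, and at 369 and 348 in basal and 509 and 541 in ER- cells. At puberty ER+ cells had 121 and 78, so Cdc7 rose there by a log2 fold change of 5.24 ± 0.69 (limma adjusted p = 0.000393). In pregnancy Cdc7 was lower in basal than in ER+ cells (-3.37 ± 0.69, adjusted p = 0.00699), whereas no member was called in that comparison. Pole, the catalytic subunit of the leading-strand polymerase, rose in ER+ cells, with 1079 and 1186 in pregnancy against 113 and 81 at puberty (3.55 ± 0.80, adjusted p = 0.0133), and in ER- cells (2.81 ± 0.80, adjusted p = 0.038). Mcm10, which helps to start the helicase, rose in basal cells, with 343 and 285 in pregnancy against 71 and 46 at puberty (2.43 ± 0.55, adjusted p = 0.0312). Spc24, a kinetochore subunit, rose in ER+ (3.27 ± 0.89, adjusted p = 0.0266) and in ER- cells (2.96 ± 0.89, adjusted p = 0.0393). Troap, a spindle-associated protein, rose in ER+ (4.21 ± 0.74, adjusted p = 0.00122) and in ER- cells (3.28 ± 0.74, adjusted p = 0.00828). Cdc25a, the phosphatase that activates cyclin-dependent kinases, rose in ER+ cells, with 948 and 866 in pregnancy against 182 and 210 at puberty (2.21 ± 0.33, adjusted p = 0.00039).

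The 15 tested inhibitors of cyclin-dependent kinases and growth-arrest genes had medians at or below 0. These medians in pregnancy against puberty were -0.40 in basal, -0.37 in ER+ and -0.01 in ER- cells, with 0, 3 and 2 genes higher and 0, 6 and 3 lower. Of all genes, 0.668%, 7.34% and 8.78% rose. The share that fell is not given here, so the counts of lower genes say nothing particular of this list. Btg1, an antiproliferative gene, fell in ER+ cells to 4151 and 4492 in pregnancy, against 13465 and 14069 at puberty (-1.67 ± 0.21, limma adjusted p = 9e-05). Gadd45a, a growth-arrest gene of the DNA damage response, fell there to 421 and 278 in pregnancy, against 2133 and 2219 at puberty (-2.67 ± 0.53, adjusted p = 0.00487). Cdkn1a, the inhibitor p21, fell in ER- cells to 710 and 729 in pregnancy, against 2355 and 2021 at puberty (-1.60 ± 0.31, adjusted p = 0.00392). Against adults Cdkn1a fell in basal cells to 969 and 825 in pregnancy, against 2203 and 4313 in adults (-1.78 ± 0.31, adjusted p = 0.0046). Gas1, a growth-arrest gene of the cell surface, rose instead in ER- cells to 1316 and 1390 in pregnancy, against 494 and 555 at puberty (1.37 ± 0.20, adjusted p = 0.000447). It was also higher in ER+ cells, at 1098 and 876 in pregnancy against 324 and 332 at puberty. In basal cells Gas1 was lower, at 8826 and 8226 in pregnancy against 13088 and 10844 at puberty. Between populations Gas1 was higher in basal than in ER+ cells at puberty (5.18 ± 0.20), in adults (5.91 ± 0.20) and in pregnancy (3.12 ± 0.20), each with an adjusted p of 4.29e-07 or less. The basal marker list summed to 35618 to 38186 in pregnancy ER- and 3057 to 13467 in puberty ER- libraries. In ER+ libraries that list summed to 26018 to 31928 in pregnancy and 880 to 12236 at puberty. The part of basal cells in the luminal values of Gas1 was not tested.

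The same lists were read in pregnancy against adult cells, where 2.92%, 12.8% and 8.89% of all genes rose in basal, ER+ and ER- cells. The share of all genes that fell is not given here, so counts of lower genes say nothing particular of a list. Origin firing and fork genes (40 tested) had 1, 14 and 7 higher in basal, ER+ and ER- cells, with 1 lower in ER- cells. Kinetochore genes (27 tested) had 0, 4 and 1 higher, with 1 lower in basal cells. Spindle genes (26 tested) had 0, 2 and 0 higher, and histones (59 tested) 5, 8 and 8, with 1 lower in ER+ cells. Nucleotide supply genes (10 tested) had 1, 1 and 2 higher. The G1/S and G2/M controls (23 tested) had 2, 5 and 3 higher and 1, 1 and 2 lower. The inhibitors (15 tested) had 1, 6 and 3 higher and 2, 2 and 2 lower. Ccnd2, cyclin D2, which was tested with the G1/S controls and not as a member, rose in all 3 populations. It was at 11108 and 7861 in pregnancy basal libraries, against 1013 and 680 in adult basal libraries (3.49 ± 0.80, limma adjusted p = 0.0287). In ER+ cells it was at 1107 and 491 in pregnancy, against 63 and 50 in adults (3.69 ± 0.80, adjusted p = 0.00983), and in ER- cells at 1171 and 778 in pregnancy, against 123 and 44 in adults (3.68 ± 0.80, adjusted p = 0.0147). The basal marker list also summed higher in luminal cells of pregnancy. It was 26018 to 31928 in pregnancy ER+ and 2238 to 3070 in adult ER+ libraries. In ER- libraries it was 35618 to 38186 in pregnancy and 4673 to 4860 in adults. The part of basal cells in the luminal values of Ccnd2 was not tested. Ccnd2 was also higher in basal than in ER+ cells at puberty (3.96 ± 0.80), in adults (3.86 ± 0.80) and in pregnancy (3.66 ± 0.80), while Ccnd1 was lower in basal cells at puberty and in adults. Among luminal cells Cdk6, a partner of D-type cyclins, and Rb1, the retinoblastoma protein that they inactivate, were lower in ER+ than in ER- cells at puberty (-2.86 ± 0.28 and -2.58 ± 0.26) and in adults (-3.31 ± 0.28 and -2.25 ± 0.26). In the adult libraries, number 1 was at least 2-fold above number 2 in all 3 populations for 20 of 26 spindle genes, 15 of 27 kinetochore genes, 28 of 59 histones, 7 of 40 origin genes, 3 of 23 controls, 0 of 10 nucleotide genes and 0 of 15 inhibitors.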

How the data were processed

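RNA of sorted cells was extracted with the RNeasy micro kit and made into Ovation Solo libraries, per the labels. STAR, Picard and HTSeq and the build GRCm38 (mm10) are named in the submitters' processing notes, without versions. The deposited table holds normalised signal per gene and library in whole numbers, which the authors had scaled to nearly equal totals; how was not given in the sources used here. Of its 46868 lines, 611 repeat a gene ID and were left out, which leaves 46257 genes. Each value is a whole read count times a step of that library, rounded up. Reads were recovered by dividing by that step, which gave back 99.8% to 99.9% of the values; in 15 of the 18 libraries a stricter test of whole reads was not met, so count tests serve only as alternatives. Read-based statements cover counting error only.

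The fit used limma 3.58.1 in R 4.3.3 (trend and robust) on log2(value + 1), which understates changes of low genes, for the 22315 genes with a value of 10 or more in 2 or more libraries. It held 9 group means over 18 libraries with 9 residual degrees of freedom, and no covariate. Tests were 2-sided, with Benjamini-Hochberg adjustment over all genes tested and a threshold of 0.05. The 9 stage comparisons, 9 population comparisons and 6 differences of effects came from this one fit. Standard errors are limma's. Alternatives were edgeR 4.0.16 and DESeq2 1.42.0 on recovered reads, other scalings, filters and pseudocounts, replicate blocks and left-out libraries; scripts were tested on simulated data. Tables and figures used Python 3.11.15, numpy 2.4.6, pandas 2.3.3 and matplotlib 3.10.9. Gene positions come from GENCODE vM21.

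The members, the pathway and marker lists and the tests were chosen with earlier results of these data known. Named in full are 16 members spread over the roles, then up to 3 called members per direction and comparison with the largest log2 fold change and any called against the majority. From each pathway list up to 3 called genes per comparison could be named, if their groups did not overlap and the higher mean exceeded 131.7, the median over genes tested. Mcm4, Mcm6, Rrm1, Tyms, Gins2, Ccne2, Uhrf1 and Ube2c are also described, chosen after their values were seen.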

Additional observations from a re-analysis of the deposited data

Results flagged for a closer look

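Pcna is listed here because its change with pregnancy differed between populations in a test of the difference itself. The pregnancy against adult effect in basal cells minus that in ER+ luminal cells was -1.71 on the log2 scale, with a standard error of 0.30 (limma adjusted p = 0.0027, 9 residual degrees of freedom). Pcna was at 2273 and 1861 in pregnancy basal libraries, against 2158 and 2550 in adult basal libraries, and at 2283 and 2015 in pregnancy ER+ libraries, against 970 and 578 in adult ER+ libraries. The adult ER+ libraries were thus the low ones, and the pairs of the other 3 groups overlapped in range. With 2 libraries per group, no single library could be tested as standing apart from its group.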

How the results depend on the processing

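Members called per comparison, out of 46, varied with the alternative. Where no share of all genes is given for a fit, here, above or below, its count shows this dependence only. Such a count says nothing particular of the members. For adult against puberty cells, with 0 in basal, 2 in ER+ and 0 in ER- cells, quantile normalization gave 1 in basal and 1 in ER+ cells, the compared groups alone 0 in ER+, edgeR 1 in ER+ and DESeq2 1 in basal cells. Leaving out the adult libraries numbered 1, an alternative chosen after seeing the data, gave 6, 1 and 1, and leaving out those numbered 2 gave 6, 8 and 7. For pregnancy against adult cells, with 0, 5 and 4, the groups alone gave 0 in ER+ and 0 in ER- cells. No filter, quantile normalization and median-ratio size factors each gave 2 in ER- cells, DESeq2 1, 13 and 8, edgeR 1 in ER- cells, the set without adult libraries numbered 1 39, 41 and 41, and that without numbers 2 0 in ER- cells. For pregnancy against puberty cells, with 1, 10 and 11, the groups alone gave 38, 36 and 41, quantile normalization 3 in basal, no filter 6 in ER-, edgeR 23 in ER+ and 19 in ER-, and DESeq2 9, 35 and 28. For pregnancy against puberty, the fit of the groups alone leaves the adult libraries out of the spread. The cause of these shifts was not tested.

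Between populations, basal against ER- cells at puberty (1 called) gave 3 under quantile normalization, 3 for the groups alone, 2 with edgeR and 2 with DESeq2. In adults it (1 called) gave 4 under quantile normalization, 2 with median-ratio factors, 0 for the groups alone, 2 with edgeR and 3 with DESeq2. Basal against ER+ cells in adults (2 called) gave 1 for the groups alone, and ER+ against ER- cells in adults (4 called) gave 2 under quantile normalization, 0 for the groups alone and 2 with edgeR. In pregnancy basal against ER- cells (0 called) gave 1 with a pseudocount of 5 and 19 for the groups alone. For the difference ER+ minus ER- against puberty (0 called) DESeq2 gave 1.

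The labels do not say that the numbers 1 and 2 pair libraries. Correlations of the 1 minus 2 differences between groups, over 22315 genes, ran from 0.02 to 0.27 within a stage, with 9 of 9 positive and 1 over 0.1, and from -0.09 to 0.07 across stages. Most members shared the direction of that difference within adults and puberty. A pairing by stage cannot be told from the labels and was not used in the fit reported. Its population tests thus count any split shared by number as spread. With the replicate block, the counts were 2, 18 and 18 for pregnancy against adult and 4, 35 and 33 for pregnancy against puberty in basal, ER+ and ER- cells. Basal against ER- cells then gave 4 at puberty, 3 in adults and 1 in pregnancy, and basal against ER+ cells 4 in adults. A replicate block within each stage, added after seeing the data, gave 17, 7 and 14 at puberty for basal against ER+, basal against ER- and ER+ against ER- cells, 8, 12 and 17 in adults, and 7 for basal against ER- cells in pregnancy. For differences of effects it gave 2 for basal minus ER+ against adults, and 2, 1 and 1 against puberty for basal minus ER+, basal minus ER- and ER+ minus ER-.

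Leaving out 1 library at a time gave, for pregnancy against adult, 0 to 22 in basal, 2 to 11 in ER+ and 0 to 16 in ER- cells, each highest without adult library 1. For pregnancy against puberty it gave 0 to 0, 2 to 5 and 0 to 7, and for adult against puberty ER+ cells 0 to 1. Between populations it gave 0 to 1, 0 to 1 and 0 to 2 at puberty for basal against ER+, basal against ER- and ER+ against ER- cells, and 1 to 4, 0 to 3 and 1 to 3 in adults. For the difference against adults it gave 1 to 2 for basal minus ER+ and 0 to 1 for ER+ minus ER-. A group left with 1 library was assumed to vary like the others. For the 46 called values of members, 405 alternatives stayed past the threshold, 185 did not and 0 changed sign. In the adult libraries numbered 2, 8 member values were 3 reads or fewer. Reads recovered in adult libraries 1 and 2 numbered 7900562 and 4233220 in basal, 2559366 and 2406219 in ER+ and 2910657 and 3165236 in ER- cells. Number 2 was thus not the shallower library in ER- cells.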

Other observations

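The split between adult libraries 1 and 2 was not limited to cell cycle genes. The genes named here were chosen after their values were seen, as those with the largest smallest difference over the 3 populations among genes at 100 or more in each higher library. Of the 251 genes at least 2-fold higher in library 1 in all 3 adult populations, 31 were members, 73 were in the pathway lists and 147 were neither. Of those 147, 41 reached 100 in each library 1. Csn1s2a and Csn2, which encode milk caseins, were among them. Csn1s2a was at 47728 and 4721 in adult basal libraries 1 and 2, 109 and 9 in the ER+ pair and 1711 and 101 in the ER- pair. Csn2 was at 77881 and 6854 in basal, 280 and 58 in ER+ and 6053 and 546 in ER- cells of adults. Tnfsf11, the ligand RANKL through which progesterone signals between mammary cells, was at 136 and 15 in basal, 939 and 42 in ER+ and 123 and 0 in ER- cells of adults, and at 8763 and 5044 in pregnancy ER+ cells.

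In the other direction 214 genes were at least 2-fold lower in library 1 in all 3 adult populations, and none was a member or in a pathway list. Among the 26 of them at 100 or more in each library 2 were Ptpn5, a phosphatase, at 6 and 150 in basal, 70 and 776 in ER+ and 7 and 195 in ER- cells of adults, and Muc16, a membrane mucin, at 0 and 235, 179 and 800, and 28 and 220 in the same order of populations. These are values of single libraries with no test, and what separates the numbers was not tested.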
